A study of Drosophila melanogaster with 4 samples.

Results

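3RHet is a heterochromatic sequence of 2.52 Mb assigned to the right arm of chromosome 3 of Drosophila melanogaster and held apart from the arm sequence 3R in FlyBase release 5. It was divided from its first base into 504 windows, 503 of 5 kb and a last one of 2507 bp, out of 27949 such windows over the 13 sequences that carry clusters. Of all enriched clusters, 171 of 5083 in ChIP replicate 1, 157 of 4595 in ChIP replicate 2 and 127 of 7929 in the combined set of the series lay on it. The members were chosen by sequence name and position alone, and the value of a window is the percent of its base pairs inside clusters.

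Trimethylation of lysine 9 of histone H3 (H3K9me3) was mapped by chromatin immunoprecipitation and sequencing (ChIP-seq) in nuclei of heads of wild-type Oregon-R flies labelled as mixed adults, whose cage populations ran in adult cycles of 22 days. The 2 ChIP libraries and 2 input libraries share strain, genotype and stage, and the sex is not given. The combined set is the authors' single list for the series, with no replicate spread. Nothing in the labels says that the replicates came from separate cages or chromatin preparations, so their spread may be technical. The files hold cluster positions and scores but no read counts, so the depth is unknown. The background in the inputs was not analysed here.

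H3K9me3 is laid down in flies by methyltransferases such as Su(var)3-9 and eggless, and is bound by heterochromatin protein HP1a, which in turn recruits further methyltransferase. This loop lets the mark extend over long domains around centromeres, where satellite repeats and transposons are dense and genes are few. Some genes that reside in such chromatin depend on it for their normal expression.

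Most of 3RHet lay inside clusters. Clusters held 72.1% of its base pairs in replicate 1 and 74.7% in replicate 2, and the combined set held 81.6%. Both replicates covered 69.7% of the sequence, replicate 1 alone 2.31%, replicate 2 alone 4.93% and neither 23.0%. The cover was a series of wide blocks, broken by many short interruptions and a few long open intervals, as the profile along the windows shows.

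**Figure D1:**
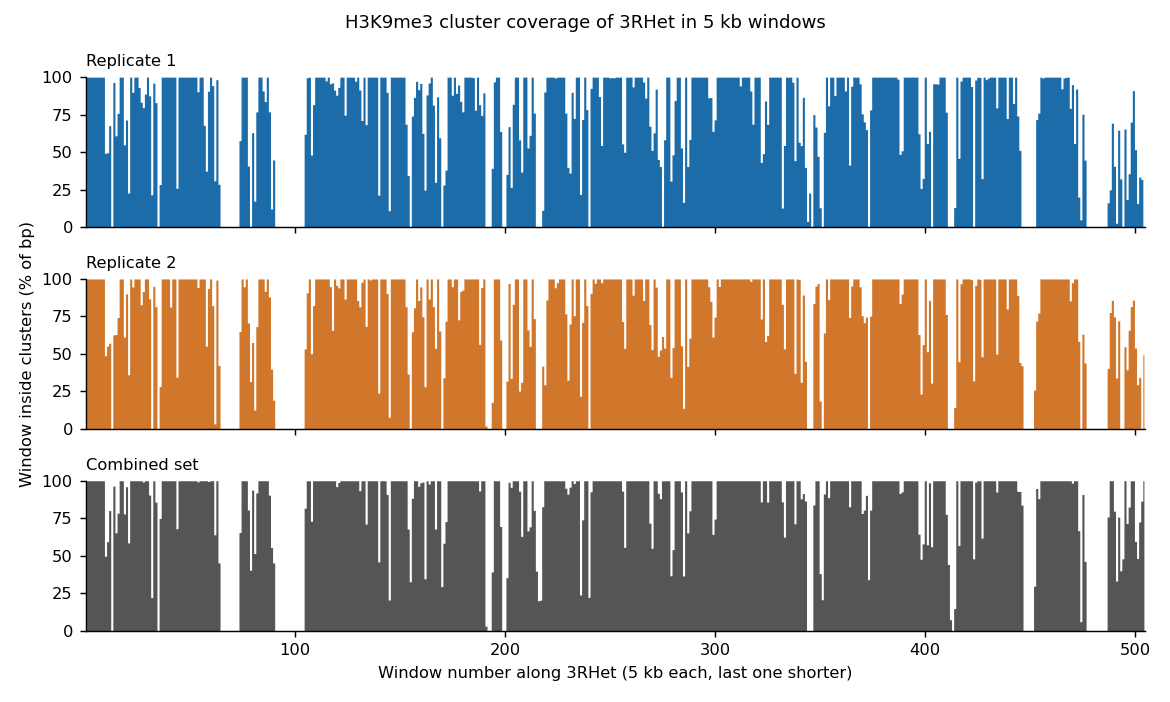
Percent of base pairs inside H3K9me3 clusters (vertical axis) in each of the 504 windows of 3RHet in order (horizontal axis), for replicate 1, replicate 2 and the combined set. The same open intervals stand out in all 3 lists, the widest of them 14 windows long in the replicates, and the last windows on the right are only partly covered in the replicates.

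Of the 504 windows, 206 (40.9%) were fully covered in both replicates, against 5.82% of the windows of all 13 sequences. A further 9 were fully covered in replicate 1 alone and 42 in replicate 2 alone. Windows with no cluster base in either replicate, called open here, numbered 57 (11.3%), against 67.7% over all sequences. The remaining 241 windows (47.8%) were covered in part, or were full or open in 1 replicate only. The combined set had 308 fully covered windows (61.1%, against 9.38% over all sequences) and 48 open ones (9.52%, against 58.6%). Every one of the 206 windows that were full in both replicates was also full in the combined set.

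**Figure D2:**
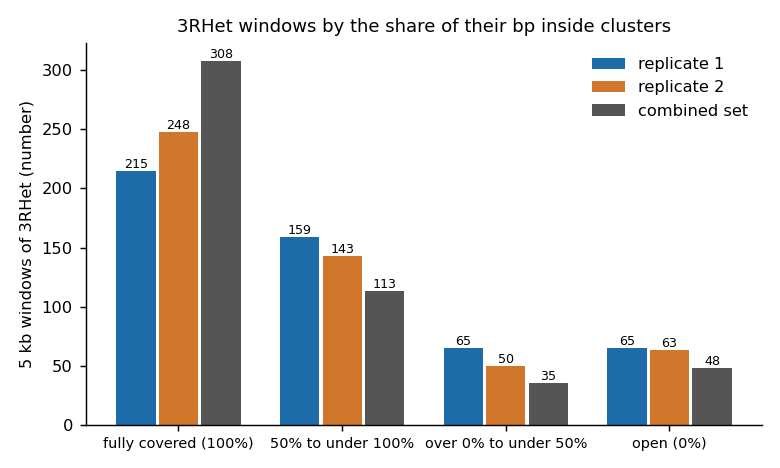
Number of 3RHet windows (vertical axis) in 4 classes of coverage (horizontal axis), with a bar for each list and its count above it. Fully covered windows were the most numerous class in each list, numbering 215 in replicate 1 and 248 in replicate 2, while the combined set had 308.

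The replicates placed most windows alike. Across the 504 windows, coverage in replicate 1 and replicate 2 had a Pearson r of 0.943 and a Spearman rho of 0.919, as a description only, since neighbouring windows share clusters. The values were equal in 263 windows, which are the 206 full and 57 open ones. Of the other 241 windows, 0 were equal and 147 (61.0%) were within 10 percentage points. Where they differed, replicate 2 was higher in 157 windows and replicate 1 in 84. No window was full in one replicate and open in the other, and 414 windows (82.1%) fell into the same of the 4 classes.

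Differences above 50 points occurred in 5 windows. The widest was in the window 1655001 to 1660000, which was 12.7% covered in replicate 1 and 83.1% in replicate 2. The window 1370001 to 1375000 had no cluster base in replicate 1 and was 61.6% covered in replicate 2. The window 1090001 to 1095000 went the other way, at 90.1% in replicate 1 and 29.5% in replicate 2. The window 2435001 to 2440000 was 24.9% covered in replicate 1 and 77.7% in replicate 2, and the window 1610001 to 1615000 was 49.0% covered in replicate 1 and 100% in replicate 2. The combined set covered 86.0% of the first of these windows and 100% of each of the others.

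Fully covered windows formed 76 runs, of which 30 were a single window and 10 were at least 5 windows long. These 10 runs held 76 of the 206 windows (36.9%). The longest, of 12 windows, spanned 60 kb from 1870001 to 1930000. It lay within 1 cluster of each list, with a score of 1.78 in replicate 1 and 1.88 in replicate 2. Next came 45 kb from 220001 to 265000 (score 1.66 in replicate 1 and 1.76 in replicate 2) and 45 kb from 1510001 to 1555000 (1.95 in replicate 1 and 1.99 in replicate 2). Runs of 40 kb lay from 5001 to 45000 and from 1440001 to 1480000, with scores of 1.75 and 1.70 in replicate 1 and of 1.84 and 1.80 in replicate 2. The first of these 2 belonged to a cluster that opened within the first 12 bp of the sequence in each list and stayed unbroken in both replicates to position 47442. In all 5 runs the score was higher in replicate 2. In the combined set the longest full run measured 105 kb and lay elsewhere than the longest of the replicates, from 1500001 to 1605000. Scores are the authors' own and their scale is not stated.

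Open windows were fewer, but a larger share of them lay in long runs. Runs of at least 5 windows held 38 of the 57 open windows (66.7%), against 36.9% of the full ones. The median run was shorter for open windows, at 1 window against 2. Open windows formed 17 runs, 9 of a single window, and the 5 longest runs held 41 of the 57 windows (71.9%). The longest covered 70 kb, from 450001 to 520000. It was followed by 50 kb between 2380001 and 2430000, by 45 kb between 320001 and 365000 and by 25 kb between 2230001 and 2255000. These 4 had no combined-set cluster either. The next, 15 kb from 1070001 to 1085000, which tied with a run of the same length from 2050001 to 2065000, was 26.7% covered in the combined set. Assembly gaps and the mappability of reads were not examined here, and an open interval cannot be read as chromatin without the mark.

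The borders of the open intervals were placed closely by the replicates in some cases and not in others. At the interval from 2048833 to 2069282, of 20.5 kb, the last cluster before it ended at 2048832 in replicate 1 and 2048815 in replicate 2. The first cluster after it began at 2069349 in replicate 1 and 2069283 in replicate 2. The clusters on both sides were strong, with scores of 1.64 and 1.66 before it and of 2.20 and 2.24 after it in replicates 1 and 2. The combined set had a cluster of 2579 bp inside this interval (2052792 to 2055370, score 1.75) and covered 13.0% of it. At the interval from 2229850 to 2258706 the borders differed more, with an uncovered length of 37177 bp in replicate 1 and 28857 bp in replicate 2. The longest interval spanned 74663 bp by the clusters of replicate 1, 76369 bp by those of replicate 2 and 73652 bp by those of the combined set.

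Coverage of a window resembled that of its neighbours only over short distances. Between windows 5 kb apart the Pearson r was 0.625 in replicate 1 and 0.642 in replicate 2, while the combined set gave 0.697. At 20 kb apart it was 0.286 in replicate 1 and 0.288 in replicate 2, and at 50 kb 0.105 and 0.0686 (493 pairs of windows, which share clusters at short distance). At 100 kb it was -0.0818 in replicate 1 and -0.0509 in replicate 2.

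Clusters of 3RHet were wide in terms of the sequence they held. Their median widths were 6320 bp (replicate 1), 6722 bp (replicate 2) and 7918 bp (combined set), and the replicate mean was 6521 bp ± 284 (SD, n = 2). With clusters up to 1 kb apart joined, the replicate mean was 10458 bp ± 3360. Clusters of at least 10 kb numbered 57 in replicate 1 and 60 in replicate 2, and held 72.8% and 78.7% of the cluster sequence. Clusters under 2 kb numbered 25 and 20 and held 2.24% and 1.66% of it. The widest cluster of replicate 1 measured 67.4 kb (1866091 to 1933515) and that of replicate 2 72.9 kb (1866241 to 1939177). They overlapped: the cluster of replicate 1 was 99.8% covered in replicate 2.

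Wide clusters had a narrow range of scores and narrow clusters a wide one. Clusters of 10 to 50 kb scored from 1.19 to 2.32 in replicate 1 and from 1.07 to 2.52 in replicate 2, with medians of 1.66 and 1.76. Clusters under 2 kb scored from 0.522 to 2.71 in replicate 1 and from 0.456 to 3.20 in replicate 2, with medians of 1.34 and 1.01. Across clusters the Spearman rho between score and width was 0.346 in replicate 1 (171 clusters) and 0.431 in replicate 2 (157 clusters), given as a description. Against the median score of their whole file, 89.5% of the 3RHet clusters of replicate 1 and 89.2% of those of replicate 2 were at or above it.

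**Figure D3:**
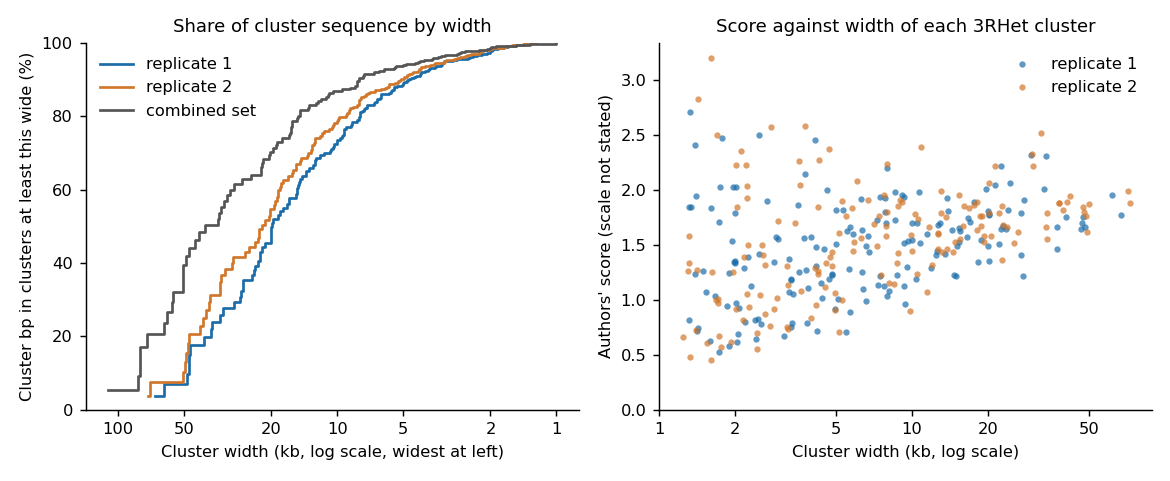
Left, percent of the 3RHet cluster sequence held by clusters of at least a given width (log scale, widest at left) in the 3 lists; clusters of at least 10 kb held 72.8% (replicate 1), 78.7% (replicate 2) and 86.8% (combined set). Right, the authors' score against width (log scale) for each cluster of the replicates, with the widest spread of scores among the narrowest clusters.

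The intervals between clusters had a median of 1576.5 bp in replicate 1 and 1512.5 bp in replicate 2. Of 170 intervals in replicate 1 and 156 in replicate 2, 68 (40%) and 61 (39.1%) were under 1 kb. These together made up 27.5 kb and 25.2 kb, or 3.93% and 3.96% of the length of the intervals. The 6 intervals over 20 kb in replicate 1 and the 5 in replicate 2 made up 260.6 kb and 229.9 kb, or 37.3% and 36.1% of it. With clusters up to 1 kb apart joined, 52.2% of windows were full in both replicates, and the longest full run measured 85 kb.

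Between the replicates, 164 of the 171 clusters of replicate 1 (95.9%) were overlapped by at least 1 bp in replicate 2, against 75.3% over all sequences. Of the 157 clusters of replicate 2, 142 (90.4%) were overlapped in replicate 1, against 79.0% over all sequences. High coverage makes overlap more frequent in itself. The 7 and 15 clusters not found in the other replicate were narrow, with a widest of 2239 bp in replicate 1 and of 3572 bp in replicate 2. The Jaccard index, the sequence covered in both over that covered in either, was 0.906.

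The replicates cut the same domains at different places. Only 78 clusters matched 1 to 1, 35 clusters of replicate 2 spanned 2 or more of replicate 1, and 21 clusters of replicate 1 spanned 2 or more of replicate 2. Among the 156 ends of the 78 matched pairs, the median difference in position was 191 bp, and 119 ends (76.3%) lay within 500 bp of each other. Across these 78 pairs the scores had a Spearman rho of 0.913, as a description. Replicate 2 scored higher in 58 pairs (74.4%), and the median of replicate 2 minus replicate 1 was 0.10.

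The combined set held fewer and wider clusters on 3RHet than either replicate. Of its 127 clusters, 41 spanned 2 or more clusters of replicate 1 and 33 spanned 2 or more of replicate 2, with up to 8 of replicate 1 in a single cluster. Its 12 clusters of at least 50 kb held 39.4% of its cluster sequence, whereas replicate 1 had 2 such clusters and replicate 2 had 3. It added 118 kb that neither replicate covered (4.67% of the sequence) and left out 2.39 kb of what either covered.

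The widest cluster of the combined set, 111 kb from 1496279 to 1607286, was cut into 4 clusters in replicate 1 and 3 in replicate 2. A replicate covered 98.4% ± 1.06 of it (mean of the replicates and SD, n = 2, as below). The next, 80.6 kb from 2268780 to 2349410 (score 1.76), was 98.0% ± 0.86 covered by 6 clusters of replicate 1 and 3 of replicate 2. The cluster from 856917 to 936261 (79.3 kb, score 1.68) held 8 clusters of replicate 1 and 5 of replicate 2, and was 94.6% ± 2.70 covered. Those from 1200369 to 1279656 (79.3 kb, score 1.61) and from 1865983 to 1939575 (73.6 kb, score 1.80) were 96.0% ± 3.05 and 98.0% ± 1.60 covered. The last of these was a single cluster in replicate 2.

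The highest score of 3RHet in each list belonged to a narrow cluster. The 3 highest in the combined set scored 3.78 (1080555 to 1081573), 3.20 (1070458 to 1072445) and 3.20 (1076403 to 1077403), with widths of 1.02, 1.99 and 1.00 kb. All 3 lay inside an interval of 19.1 kb, from 1068802 to 1087910, in which neither replicate had a cluster. The 3 longest clusters of the combined set found in neither replicate, out of 24, lay from 1859102 to 1861704 (score 1.02), 2052792 to 2055370 (score 1.75) and 1147276 to 1149644 (score 1.17). No matching share over all sequences is given here, so these 24 of 127 clusters cannot be called many or few. The highest-scoring clusters of the replicates were looked up after their values were seen. That of replicate 1 (1719810 to 1721137, score 2.71) was not found in replicate 2 or in the combined set. That of replicate 2 (2112169 to 2113769, score 3.20) was not found in replicate 1, and the combined set covered 100% of it. The second highest of replicate 1 (50450 to 52930, 2.48 kb, score 2.50) was 100% covered in both replicate 2 and the combined set.

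Along the sequence, coverage by segments of 500 kb was highest from 1.5 to 2.0 Mb and lowest in the first and last of them. In segments of 500 kb from the first base, the replicates covered 64.8% ± 0.76, 77.3% ± 0.79, 78.6% ± 1.53, 84.4% ± 2.93 and 63.4% ± 3.26 (SD, n = 2). The fourth segment was 82.3% covered in replicate 1 and 86.5% in replicate 2, the last of the 5 was 61.1% and 65.7% covered, and the first 64.3% and 65.3%. The fourth was above both end segments in both replicates, by more than the spread between them. The end segments stood in opposite order in the replicates. The combined set gave 71.2%, 84.2%, 89.2%, 90.8% and 72.7%.

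Windows followed the same course. The fourth segment held 58 windows full in both replicates and 3 open in both, the first held 37 and 21, and the last of the 5 held 29 and 19. The second held 39 and 10, and the third 43 and 4. In whole bins of 100 kb, 22 of 25 were at least 50% covered on the mean of the replicates, and the range was from 33.7% to 98.7%. The 3 others were 300001 to 400000 (36.5% ± 1.17), 400001 to 500000 (35.6% ± 0.62) and 2400001 to 2500000 (33.7% ± 6.49). The last 17507 bp, which fill neither a bin nor a segment, were lower still, at 24.3% ± 1.57. The combined set covered 73.5% of them. The first 300 kb were not low: their 3 bins were 80.9% ± 0.48, 79.3% ± 0.81 and 91.8% ± 1.66 covered, and the low value of the first segment came from its last 2 bins. The score, averaged over covered base pairs, was 1.85 ± 0.08 in the fourth segment and between 1.60 ± 0.04 and 1.67 ± 0.07 in the other 4 segments of 500 kb.

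In the replicates, weak and narrow clusters gathered at the end of the sequence. Past the open interval that ends at 2431726, the final 85.8 kb held 11 clusters in replicate 1 and 15 in replicate 2, all narrow and nearly all weak. This stretch was picked out after its values were seen, and no test was made on it. The median score was 0.774 ± 0.01 in the final stretch, 1.59 ± 0.08 in the rest of 3RHet and 0.595 ± 0.01 in the first 2 Mb of the arm 3R. Scores under 1 were carried by 10 of 11 clusters of replicate 1 and 13 of 15 of replicate 2 in the stretch, against 16 of 160 and 12 of 142 in the rest. The widest clusters were 5685 and 5307 bp in the stretch, against 67425 and 72937 bp in the rest.

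Its coverage was 38.7% in replicate 1 and 49.8% in replicate 2, against 73.2% and 75.6% in the rest of 3RHet and 7.45% and 7.42% in the first 2 Mb of 3R. None of its 17 whole or last windows was full in either replicate, and the highest value was 91.0% in replicate 1 and 85.9% in replicate 2. With windows counted from the start of the stretch instead, 2 were full in replicate 1 and 1 in replicate 2. In the combined set the stretch was 76.5% covered, with 6 full windows, against 81.7% covered in the rest of 3RHet. The median score in that set was 0.599 in the stretch and 1.62 in the rest. Its clusters there were not all narrow: the widest that began in the stretch measured 15172 bp. Another of 16274 bp (score 0.697) ran into the stretch from 2431206. The 3 lowest scores of the combined set on 3RHet were here. Those of 0.383 (2507988 to 2509619) and 0.406 (2513179 to 2514321) were called in neither replicate, and that of 0.395 (2476600 to 2478122) was called in replicate 2 only, over 87.2% of its length. Weak clusters also stood before the open interval, along with stronger ones. In the 27.8 kb from 2349411 to 2377234 scores ran from 0.522 to 1.54 in replicate 1 and from 0.456 to 1.59 in replicate 2. How 3RHet is oriented or joined to 3R is not given in the files, and the stretch cannot be placed relative to the arm from them.

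**Figure D4:**
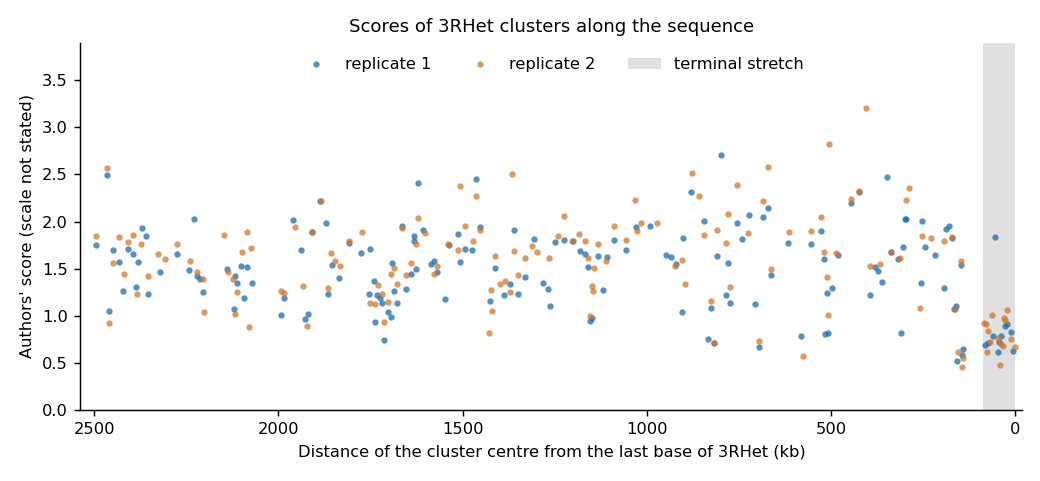
The authors' score of each 3RHet cluster of the replicates (vertical axis, scale not stated) against the distance of its centre from the last base of the sequence in kb (horizontal axis, the last base at the right). Grey marks the final 85.8 kb, where 10 of 11 clusters of replicate 1 and 13 of 15 of replicate 2 scored under 1.

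Against the sequence of the other arm of the same chromosome, 3RHet was less fully covered. Coverage was 72.1% and 74.7% on 3RHet in replicates 1 and 2, against 78.7% and 81.2% on 3LHet, a difference of -6.59 points ± 0.09 (SD, n = 2). Open windows were more frequent, at 12.9% and 12.5% on 3RHet and 7.23% and 6.25% on 3LHet, and full windows less so, at 42.7% and 49.2% on 3RHet and 52.3% and 54.7% on 3LHet. The median score was 1.55 ± 0.05 on 3RHet and 1.66 ± 0.04 on 3LHet, with the same sign in both replicates. The median width, 6521 bp ± 284 on 3RHet and 6415 bp ± 107 on 3LHet, differed by less than its spread.

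Against 2LHet, of 0.369 Mb, coverage was 10.1 points ± 0.57 higher on 3RHet (73.4% ± 1.85 on 3RHet, 63.3% ± 2.42 on 2LHet). The median score was lower on 3RHet in both replicates, at 1.55 ± 0.05 on 3RHet and 1.69 ± 0.01 on 2LHet. Against the first 2 Mb of 3R, the arm sequence of the same chromosome arm, the difference was 65.9 points ± 1.88, with 7.43% ± 0.02 covered on 3R. Of the 504 windows of 3RHet, 206 were full and 57 open in both replicates, against 1 and 303 of 400 on 3R. The longest open run was 70 kb on 3RHet and 175 kb on 3R. An exact two-sided permutation test over the 2 replicates cannot go below p = 0.5, and each of these coverage differences gave that value, so none can be called. Each coverage difference had the same sign in both replicates and in the combined set.

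**Figure D5:**
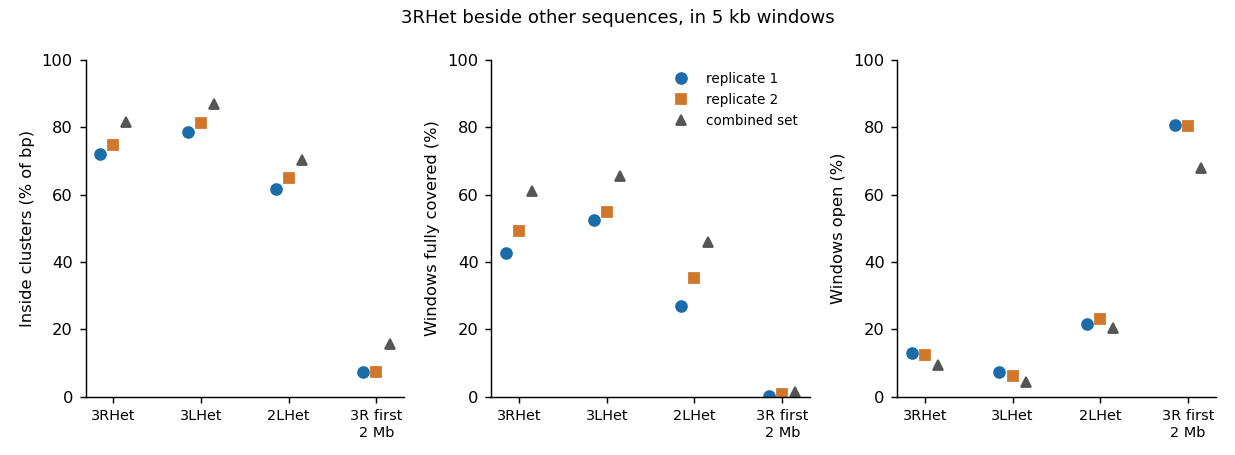
Percent of base pairs inside clusters (left), of windows fully covered (middle) and of windows open (right) on 3RHet, 3LHet, 2LHet and the first 2 Mb of 3R, each point a list. 3RHet stood between 2LHet and 3LHet in all 3 panels and in each list, and far from the arm sequence.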

How the data were processed

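The files used were 3 lists of enriched clusters, 1 per ChIP replicate and 1 for the series. Per the submitters' processing notes, Bowtie 0.12.7 was the aligner. Per the file headers, the coordinates are those of FlyBase release 5. The sources used here give no cluster caller, threshold, use of the inputs or way of making the combined set. The score of each cluster is the authors' deposited value, of unstated scale, and served only to describe and filter clusters. Starts and ends are 1-based, as deposited.

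On 3RHet, 2 clusters ran past the end of the sequence, by at most 415 bp, and were clipped. Coverage was counted base by base in windows of 5 kb from position 1. A fully covered window is 100% and an open one 0% covered. Replicate values are mean ± SD of the 2 ChIP libraries. No p-value was drawn from windows or clusters, which are not replicates. Positions named are the 5 longest full and open runs, the 5 widest, 3 highest, 3 lowest-scoring and 3 longest unshared clusters of the combined set, the 5 windows that differed most, and all segments. The borders of open intervals, the widest and highest-scoring clusters of the replicates, the bins under 50% and the first 3, and the stretches near the end of the sequence were named after their values were seen. The members and these rules were chosen with earlier results of these data known. Alternatives were a score threshold, a minimum width, joining, other windows and limits, overlap rules, the combined set and each replicate alone. The code matched a base-by-base count in 50 of 50 pairs of simulated lists. Python 3.11.15, numpy 2.4.6, scipy 1.17.1 and matplotlib 3.10.9 were used.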

Additional observations from a re-analysis of the deposited data

How the results depend on the processing

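The 12 main values were recomputed under the alternatives, which gave 86 values. Of these, 68 stayed within the spread of the replicates, or within 1.5 times where there is no spread, and 18 moved further. The 68 include values fixed in advance. Where there is a spread, the value with 1 replicate left out lies within it by arithmetic, so it shows no stability. None of the coverage differences from 3LHet, 2LHet and the first 2 Mb of 3R changed sign. The other main values cannot change sign. In the combined set, coverage was 81.6%, the longest full run 105 kb, the median width 7918 bp, the difference from 3LHet -5.17 points and from 2LHet 11.2 points, and the range over segments 19.6 points. Keeping only clusters whose score reached their file's median, the median width was 7705 bp, the difference from 3LHet -6.93 points, that from the first 2 Mb of 3R 70.2 points and the range over segments 23.5 points. With clusters of at least 2 kb the median width was 7986 bp and the range 23.9 points, and with clusters up to 1 kb apart joined they were 10458 bp and 20.8 points. In windows of 10 kb, 26.6% were full in both replicates. Clusters found in the other replicate fell to 85.8% on the mean of both directions with 50% of the width overlapped, and to 69.6% with 50% of both widths, against 93.2% for 1 bp. Leaving out the final 85.8 kb, an alternative chosen after seeing the data, gave a median width of 7334.5 bp and a coverage of 74.4%. With either replicate left out, coverage lay between 72.1% and 74.7% and the share of full windows between 42.7% and 49.2%. The longest open run kept a length of 70 to 72 kb in every alternative. Several of these could not shorten it. Removing clusters or a replicate, or loosening the open limit, can only keep or lengthen an open run. Joining over at most 1 kb cannot close so long an interval. Depth is unknown, so the sensitivity of the cluster calls could not be judged. No paired analysis was possible because the inputs, which share replicate numbers with the ChIP libraries, were not analysed here.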
